A study of Homo sapiens with 20 samples.

Results

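Gene expression was compared between 5 samples labelled with a treatment that clears heat and removes dampness (heat-clearing) and 5 labelled with one that strengthens the spleen and regulates the flow of qi (spleen-strengthening). These 10 samples were taken by their labelled treatment from a series of 20, which also holds 5 yin-nourishing samples (a treatment that eliminates heat by nourishing yin) and 5 blood-activating samples (a treatment that activates blood and removes stasis). The source named for all 20 is SW1990, a human cell line established from pancreatic cancer, while the series as a whole is described as a mouse model. The terms are those of traditional Chinese medicine. The sources used here name no herb, dose, duration or host strain, and the labels name no untreated group, so all values set 1 treatment against the other. Whether replicates came from separate mice, tumours or cultures is not stated, so p-values measure only the spread between these samples, which may be technical.

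The genes that follow are ordered by what they do. NAB1 and NAB2 are corepressors that bind the EGR transcription factors and limit their activity, and NAB2 is itself a known target of EGR proteins, which makes it part of a feedback loop. EGR1 and its relatives are immediate early genes, a class that growth factors and stress switch on without new protein synthesis. In pancreatic tumour cells, glycolysis, amino acid synthesis under the integrated stress response, NF-kB signalling and the balance of mucin-rich glandular and keratin-rich basal programmes have each been studied as traits of the disease.

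Total counts were 90.0 to 135.0 M (M, 1000000 counts) in the heat-clearing and 81.7 to 110.0 M in the spleen-strengthening libraries. Levels below are CPM (counts per 1000000 counts of a library, scaled between libraries by TMM) and are listed in replicate order, heat-clearing 01, 02, 03, 07 and 09 and spleen-strengthening 02, 05, 06, 07 and 08. In 2 of the 5 heat-clearing libraries, 01 and 02, RN7SK, the 7SK nuclear RNA that holds back transcription elongation, took 5.25% and 6.07% of all counts, against 1.78% to 2.28% in the other 3 and 1.57% to 3.02% in the spleen-strengthening group. The same 2 libraries had the lowest share of mitochondrially encoded mRNA, 10.6% and 13.1%, against 17.1% to 19.9% and 17.2% to 23.2%. They are called the RN7SK-high libraries (a share over 4%); 3 blood-activating libraries are of this kind as well, and no spleen-strengthening library is. The epithelial markers of the line were present in all 10 libraries, with KRT19 at 822 to 1149 CPM in heat-clearing and 844 to 923 CPM in spleen-strengthening samples. Some defining markers of other cell types were at 0 in all 10, namely CD3D of T cells, FCER1G of myeloid cells, ALAS2 of red blood cells, ACTA1 of skeletal muscle and SLC30A8 of islets. Other members of these and further lists had counts in every library: without scaling, CD68 of macrophages had 37.7 to 63.3 CPM, CD4 22.85 to 36.0 CPM, COL1A1 of fibroblasts 15.6 to 52.3 CPM and the muscle gene TTN 11.7 to 21.3 CPM. No fibroblast, endothelial or acinar marker was at 0 in all 10.

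Few genes were called different between the 2 treatments by edgeR. Of 24790 rows tested with edgeR's quasi-likelihood test, 2 were higher in heat-clearing samples at a Benjamini-Hochberg adjusted p under 0.05 (0.00807%), NAB2 and SH2D5, and 0 were lower (0%). At an unadjusted p under 0.05 the counts were 2093 higher (8.44%) and 751 lower (3.03%). Both calls lay close to the threshold: edgeR called 0 rows when any 1 of 16 of the 20 libraries was left out. The split at an unadjusted p under 0.05 depended on the scaling between libraries, with 1726 higher and 1000 lower under upper quartile scaling. All 5 heat-clearing values were above all 5 spleen-strengthening values at 198 rows (0.799%) and below them at 114 rows (0.46%). The fold change was above 0 at 51.8% of rows, with a median of 0.02 on the log2 scale. Fold changes are heat-clearing minus spleen-strengthening throughout.

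NAB2 was higher in heat-clearing than in spleen-strengthening samples. Its levels were 10.05, 10.3, 7.93, 9.13 and 10.2 CPM in heat-clearing and 5.08, 5.55, 4.57, 5.67 and 4.21 CPM in spleen-strengthening libraries. The groups did not overlap, and the lowest heat-clearing value came from library 03, not from an RN7SK-high library. The means were 9.51 ± 0.995 CPM and 5.02 ± 0.626 CPM (SD, n = 5 each), a log2 fold change of 0.92 with a standard error (SE) of 0.149 and an edgeR adjusted p of 0.0495. Without the 5 RN7SK-high libraries of the series the log2 fold change was 0.86, with an edgeR adjusted p of 1 from 3 against 5 samples. NAB2 (ENSG00000166886.12) lies at chr12:57088894-57095476 on the plus strand of hg38, and its last 69 bases are shared with STAT6 on the other strand. STAT6, the interleukin 4 signal transducer, had 53.4 ± 15.6 against 46.5 ± 3.56 CPM, a log2 fold change of 0.20 that did not pass the test.

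The other groups of the series place both treatments. NAB2 had 7.65 ± 0.659 CPM in yin-nourishing and 8.96 ± 1.21 CPM in blood-activating samples, so the spleen-strengthening group was the lowest of the 4. The difference from spleen-strengthening was 0.61 for yin-nourishing and 0.84 for blood-activating samples, with edgeR adjusted p of 0.889 and 0.0600. Heat-clearing exceeded yin-nourishing by 0.31 and blood-activating by 0.09 on the log2 scale, and neither difference passed the test (edgeR adjusted p 0.481 and 1). These comparisons share samples and are not independent of the first.

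The partners of NAB2 did not move with it past the test. NAB1, the second corepressor, had 200.2 ± 21.0 CPM in heat-clearing and 200.6 ± 30.1 CPM in spleen-strengthening samples. EGR1 had 35.3, 28.8, 25.1, 26.7 and 25.5 CPM against 24.9, 33.3, 21.0, 18.8 and 19.2 CPM. The groups overlapped through spleen-strengthening library 05, and the log2 fold change of 0.27 (SE 0.206) had an unadjusted p of 0.205. EGR2, EGR3 and EGR4 were each above 0 as well, at 0.21, 0.45 and 0.93, with unadjusted p of 0.656, 0.302 and 0.326. All 4 EGR genes were thus on the same side as NAB2, with overlapping groups, and none passed the test.

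The bases before the RefSeq start of NAB2 hold 1 match to the EGR site, shown here because NAB2 is one of the 2 genes called and EGR proteins are its known regulators. RefSeq promoter windows on GRCh38.p14 were searched over 250 bases before each annotated start for GCGNGGGCG (EGR), TGANTCA (AP-1) and TGACGTCA (CRE) on both strands. An EGR match was present in 8.41% of 35116 such windows, an AP-1 match in 6.57% and a CRE match in 1.65%. RefSeq starts can differ from those of the GENCODE positions given here: the RefSeq start of NAB2 is chr12:57089114, which is 220 bases inside the GENCODE gene, and that of KLC3 is 7316 bases inside. Of the 24 named genes described further on, 18 had an entry, and PHACTR3, MUC6, PKD1P6, NAGLU, GJD3 and CFAP300 had none, nor had SH2D5. An EGR match was found in 3 of the 18, an AP-1 match in 1 (LRRC20) and a CRE match in 0. The 3 were PITX1, KLC3 and BHLHE41, of which the first 2 had higher and the third lower levels in heat-clearing samples. A gene counted here if any of its windows held a match, whereas the percents above are per window, so they are not a like background. The windows of NAB2, PITX1, KLC3 and BHLHE41 had 81.2%, 79.2%, 66.0% and 70.4% GC, and that of CDK5R1, without a match, 79.6%. Each line gives 30 bases read 5′ to 3′ on the gene's strand, with the match in capitals; the matches in NAB2 and KLC3 are on the gene's strand and that in BHLHE41 is on the other.
NAB2, chr12:57089042-57089071, plus strand: tgtgcgtcctGCGGGGGCGgaggcgcggag
KLC3, chr19:45340686-45340715, plus strand: cggctcacctGCGGGGGCGtggctcccggc
BHLHE41, chr12:26125134-26125163, minus strand: cttctcccgaCGCCCCCGCccggcccggcc
The NAB2 match lies 62 to 54 bases before the start, the KLC3 match 54 to 46 and the BHLHE41 match 116 to 108. PITX1 holds 3 matches and EGR1 itself holds 1. NAB1, whose level did not differ, holds matches too, so a match is only a description of the letters in the window.

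SH2D5, an adaptor with a phosphotyrosine-binding domain and an SH2 domain, was almost absent from the spleen-strengthening libraries. It had 64, 28, 105, 64 and 63 counts in the heat-clearing libraries. In the spleen-strengthening group library 02 had 4 counts and libraries 05, 06, 07 and 08 had 0. The ratio of 324 counts in 529.5 M to 4 counts in 452.8 M was 69.3 (exact 95% interval 26.8 to 256, counting error only). The fitted log2 fold change was 5.996 (SE 0.99, edgeR adjusted p 0.0495), a value that depends on the prior count of the fit and was 8.89 without spleen-strengthening library 02. Without the RN7SK-high libraries it was 6.27 (edgeR adjusted p 0.901).

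SH2D5 was low in all groups. In CPM the heat-clearing values were 0.564, 0.293, 1.12, 0.597 and 0.464. The highest came from library 03, which also had the highest summed acinar markers of the heat-clearing and spleen-strengthening libraries (437.7 CPM without scaling). Yin-nourishing 10 and blood-activating 06 had larger acinar sums (1168 and 1083 CPM), with SH2D5 at 0.898 and 0.161 CPM. A link between the 2 levels was not tested. Yin-nourishing samples had 0.205 to 0.898 CPM and blood-activating samples 0.161 to 0.875 CPM. The spleen-strengthening group thus stood below each of the other 3 groups without overlap, although in an edgeR test neither the difference from yin-nourishing (adjusted p 0.122) nor that from blood-activating samples (adjusted p 0.0600) passed. SH2D5 (ENSG00000189410.11) lies at chr1:20719732-20732837 on the minus strand of hg38 and overlaps no other annotated gene.

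**Figure D1:**
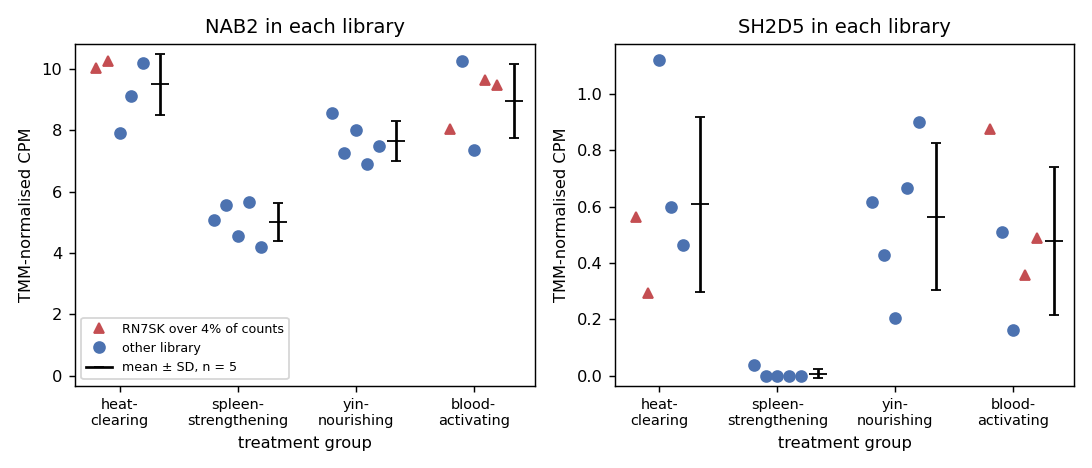
Levels of NAB2 (left) and SH2D5 (right) in TMM-normalised CPM in each of the 20 libraries, by treatment group; red triangles are libraries with RN7SK over 4% of counts, blue circles the others, and black bars the mean ± SD of 5. The spleen-strengthening group is the lowest for both genes, with NAB2 at 4.21 to 5.67 CPM and SH2D5 at 0 in 4 of 5 libraries.

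No further gene passed the test, and the following are the 12 genes in each direction with the smallest unadjusted p among named genes with a mean of at least 1 CPM. Their edgeR adjusted p lay between 0.274 and 0.323. In the higher direction RNF223, a membrane protein with a RING finger domain, had 2.79, 3.31, 2.95, 2.90 and 1.47 CPM against 0.281, 0.728, 0.860, 0.870 and 0.666 CPM. There was no overlap between groups, and the lowest heat-clearing library was 09. Its log2 fold change was 1.98 (SE 0.392), and 1.84 without the RN7SK-high libraries.

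The remaining 11 higher genes shared a pattern across libraries. In each of them both RN7SK-high libraries were above the other 3 heat-clearing libraries, which held for 22.9% of all tested rows. KLC3, a kinesin light chain, had 9.79, 5.91, 4.38, 3.69 and 4.68 CPM against 1.99, 1.74, 2.65, 2.71 and 3.05 CPM. The groups did not overlap, and the log2 fold change went from 1.23 to 0.81 without the RN7SK-high libraries. DAPK3, a kinase of the death-associated family, had 11.1, 9.52, 5.71, 6.88 and 6.17 CPM against 4.31, 3.43, 4.15, 4.34 and 3.58 CPM. These groups did not overlap either, and the log2 fold changes were 0.99 and 0.66. F12, which encodes coagulation factor XII and overlaps GRK6 on the other strand over most of its length, had log2 fold changes of 1.41 and 1.07.

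PITX1, a homeobox transcription factor, had 103, 111, 29.9, 54.2 and 65.4 CPM against 31.8, 39.4, 32.6, 32.5 and 38.9 CPM. Heat-clearing library 03 lay below all 5 spleen-strengthening libraries, and without that library PITX1 passed the edgeR test (adjusted p 0.00868, log2 fold change 1.25). The groups of NAGLU, LONP1 and EFNA4 also overlapped. NAGLU, a lysosomal enzyme of heparan sulfate breakdown, and LONP1, the main protease of the mitochondrial matrix, had log2 fold changes of 1.13 and 0.64, and 0.65 and 0.50 without the RN7SK-high libraries. LRRC20, TAF1C (a subunit of the RNA polymerase I selectivity factor), EFNA4 (an ephrin ligand), TMUB2 and the pseudogene PKD1P6 lay between 0.61 and 1.26. NAGLU and EFNA4 each lie mostly within another annotated gene on the same strand. In both cases that gene was not among the tested rows, so the reads of NAGLU and EFNA4 may have been divided as well. PKD1P6 is a near copy of part of PKD1 and overlaps the row PKD1P6-NPIPP1 on its own strand, so its reads may have been split, and their summed level differed by 0.38 where PKD1P6 alone differed by 1.19.

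In the lower direction the pattern across libraries was weaker. PHACTR3, a regulator of protein phosphatase 1 and actin, had 2.44, 6.03, 5.44, 8.03 and 4.18 CPM in heat-clearing and 14.2, 8.02, 16.8, 15.9 and 18.9 CPM in spleen-strengthening libraries. Only heat-clearing library 07 reached the lowest spleen-strengthening library. The log2 fold change was -1.50 (SE 0.29), and -1.33 without the RN7SK-high libraries. MUC6, a secreted gel-forming mucin, had 4.11, 3.41, 2.78, 5.08 and 3.11 CPM against 12.7, 6.02, 8.49, 7.52 and 6.23 CPM. No library of either group lay within the range of the other, and the log2 fold change was -1.15 (SE 0.264) with all libraries and -1.17 without the RN7SK-high ones.

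LAMB1, the beta 1 chain of laminin in basement membranes, had 45.6, 41.6, 35.6, 46.7 and 50.8 CPM against 61.8, 54.6, 72.1, 68.9 and 56.7 CPM. The groups did not overlap, and the log2 fold change was -0.51 with all libraries and -0.50 without the RN7SK-high ones. SOD3, the extracellular superoxide dismutase, and GJD3, a connexin, were below all 5 spleen-strengthening libraries in all 5 heat-clearing libraries, as was C9orf152. Their log2 fold changes were -0.63, -0.86 and -0.82. GJD3 and LINC00705 lie wholly within a gene on the other strand, and the strand setting of the counting is not given in the sources used here. CDK5R1, the p35 activator of CDK5, had 18.1 ± 4.15 against 28.2 ± 3.59 CPM, and BHLHE41, a transcriptional repressor of the circadian clock, 66.7 ± 18.4 against 102.9 ± 22.1 CPM. Both RN7SK-high libraries were below the other heat-clearing libraries at 5 of the 12 lower genes (LINC00705, GJD3, SOD3, BHLHE41 and MTMR12), and at 18.6% of all tested rows.

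**Figure D2:**
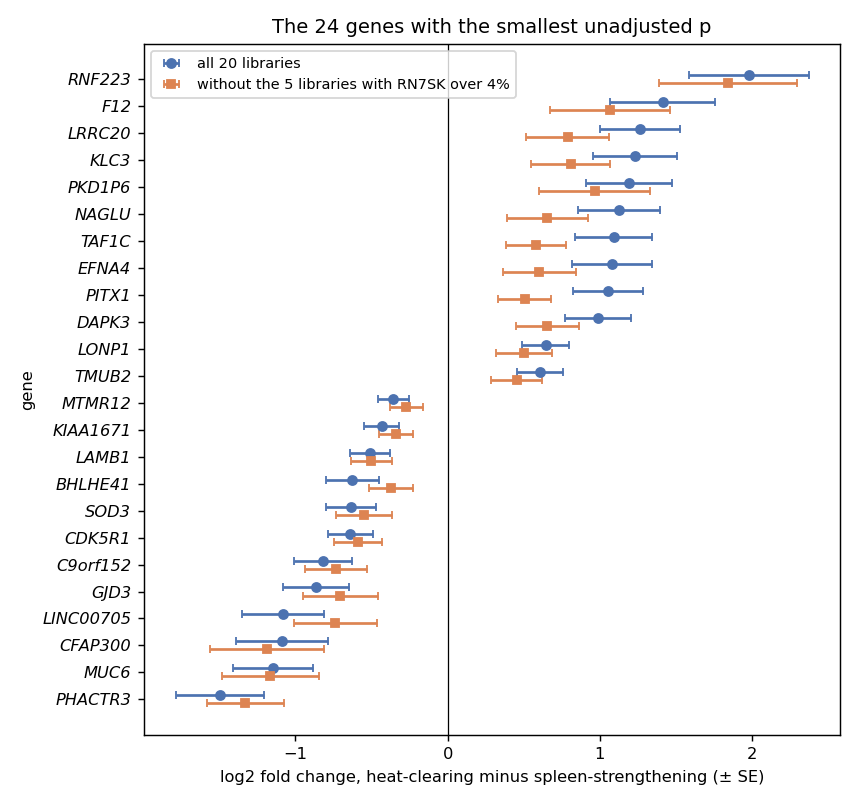
Log2 fold change (heat-clearing minus spleen-strengthening) with its SE for the 24 genes with the smallest unadjusted p, from all 20 libraries (blue circles) and without the 5 libraries with RN7SK over 4% of counts (orange squares). All 24, chosen by p in a fit that includes the remaining libraries, keep their direction. PITX1 moves from 1.05 to 0.51, while LAMB1 and MUC6 stay near -0.51 and -1.15.

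The RN7SK-high libraries moved with much of the comparison. Of the 2093 rows higher at an unadjusted p under 0.05, both of these libraries were above the other 3 heat-clearing libraries at 74.1%, and of the 751 lower rows they were below them at 57.7%. Without the RN7SK-high libraries edgeR called 0 of 28334 rows in either direction (0%), with 834 higher (2.94%) and 428 lower (1.51%) at an unadjusted p under 0.05. Of the 2093 higher rows 2070 were still tested, 1983 kept their direction and 411 an unadjusted p under 0.05, and their median log2 fold change went from 0.72 to 0.28. All 751 lower rows kept their direction, 161 kept an unadjusted p under 0.05, and their median went from -0.47 to -0.29. The fold change was above 0 at 49.2% of rows in that fit. The 2093 and 751 rows were picked by p in a fit that includes the remaining libraries. Their kept direction is thus no independent support. The part of the RN7SK share in single genes was not tested.

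Fold changes also moved with the base composition of transcripts. GC content of the longest GENCODE transcript was available for 94.0% of tested rows, and the rows were divided by it into 5 sets of like size. The median log2 fold change was -0.17, -0.09, -0.01, 0.14 and 0.39 from the set of lowest to that of highest GC. Without the RN7SK-high libraries the medians were -0.04, -0.03, -0.02, 0.03 and 0.10. An unadjusted p under 0.05 in the higher direction was found at 1.33% of the lowest and 24.6% of the highest set, and in the lower direction at 6.37% and 0.408%. NAB2 transcripts had 62.6% GC and SH2D5 transcripts 61.4%, both in the highest set (57.0% to 83.9%), whose median of 0.39 lies below the 0.92 of NAB2. The part of GC content in these 2 results was not tested.

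**Figure D3:**
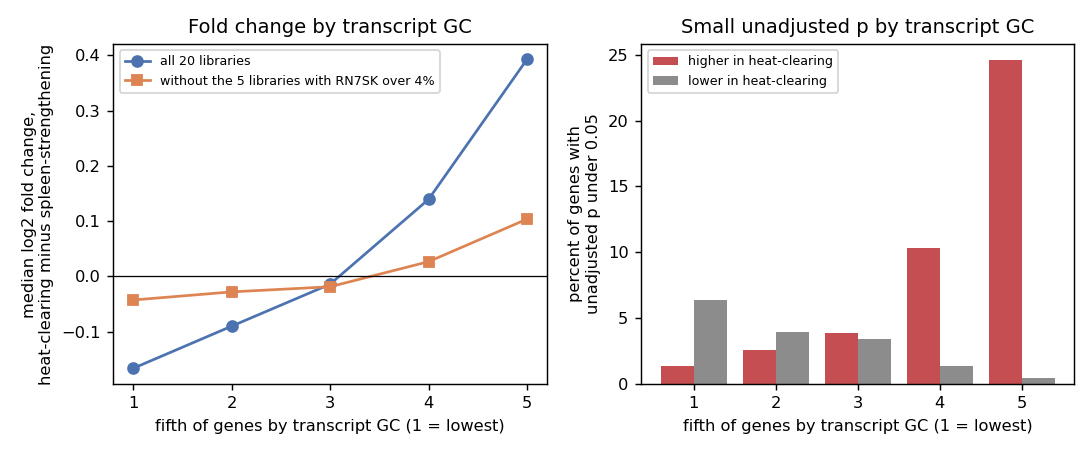
Genes in 5 sets by transcript GC content (1 is the lowest), with the median log2 fold change (left; blue circles all 20 libraries, orange squares without the 5 libraries with RN7SK over 4%) and the percent of genes with an unadjusted p under 0.05 (right; red higher, grey lower in heat-clearing). The left median reaches 0.39 in the highest set with all libraries and 0.10 without the 5.

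Gene lists were read by counts and medians against those of all tested rows, 51.8% above 0 and a median of 0.02. Over all rows an edgeR unadjusted p under 0.05 was found at 8.44% higher and 3.03% lower. Median GC content was 53.0% for glycolysis, 51.8% for the integrated stress response, 50.5% for NF-kB and inflammatory genes and 53.5% for Wnt and Notch. It was 48.0% for cytosolic ribosomal proteins and 47.8% for all rows, and the part of GC content in the lists was not tested. No list member other than NAB2 passed the edgeR test over all genes. Since these are bulk samples, fewer cells of a type and less RNA per cell cannot be told apart.

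Genes of sugar breakdown were mostly higher in heat-clearing samples. Of 27 tested glycolysis genes 22 were above 0, with a median log2 fold change of 0.25, and 8 had an unadjusted p under 0.05, all higher. Among the 19 enzymes 18 were above 0. ENO1, the enolase that makes phosphoenolpyruvate, had 443, 360, 338, 381 and 511 CPM against 304, 329, 288, 334 and 306 CPM. The 2 ranges did not meet, and the log2 fold change was 0.38 (SE 0.121), and 0.39 without the RN7SK-high libraries. PFKFB3, which makes the activator of phosphofructokinase, had 22.2 to 35.1 CPM against 15.5 to 21.2 CPM, without overlap. Without the RN7SK-high libraries the list had 23 of 27 above 0 and a median of 0.20.

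Single glycolysis genes differed in this respect. PFKL, the liver form of phosphofructokinase, had a log2 fold change of 0.84 with all libraries and 0.36 without the RN7SK-high ones. GAPDH, the pathway's dehydrogenase, and LDHA, which makes lactate, had log2 fold changes of 0.13 and -0.04. Genes of the hypoxia response, which include targets of the HIF factors, were above 0 in 17 of 29, with a median of 0.08, and in 21 of 29 with a median of 0.13 without the RN7SK-high libraries. P4HA2, a collagen prolyl hydroxylase, had 16.5, 15.4, 16.1, 16.1 and 17.1 CPM against 11.7, 11.04, 13.5, 15.4 and 9.44 CPM. The groups did not overlap, although heat-clearing library 02 and spleen-strengthening library 07 were nearly equal, and the log2 fold change was 0.42 in one fit and 0.43 in the other. VEGFA, the endothelial growth factor, and ITGA5, the fibronectin receptor subunit, had log2 fold changes of 0.62 and 0.92, and 0.42 and 0.86 in the smaller fit.

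The integrated stress response, in which the factor ATF4 drives amino acid synthesis and transport, had 36 of 50 tested members above 0, a median of 0.24, and 12 with an unadjusted p under 0.05, all higher. The 14 enzymes of amino acid synthesis had a median of 0.55, with 6 at an unadjusted p under 0.05. PCK2, the mitochondrial enzyme that makes phosphoenolpyruvate, had 5.47, 5.25, 4.05, 4.22 and 3.28 CPM against 1.78, 2.42, 2.38, 3.55 and 1.40 CPM. Heat-clearing library 09 lay below spleen-strengthening library 07, and the log2 fold change was 0.95 (0.74 without the RN7SK-high libraries). ATF4 itself had 141.3 ± 17.7 against 144.7 ± 11.4 CPM, a log2 fold change of -0.03. PYCR1, a proline synthesis enzyme, and PHGDH, the first enzyme of serine synthesis, had log2 fold changes of 0.65 and 0.64, and 0.11 and 0.25 without the RN7SK-high libraries. Over the smaller set of libraries the whole list had 37 of 50 above 0 and a median of 0.11, and the enzymes of amino acid synthesis a median of 0.19.

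Mitochondrially encoded transcripts lay in the other direction. Of the 13 mRNA 12 were below 0, with a median of -0.40, and 9 had an unadjusted p under 0.05, all lower. MT-ATP6, a subunit of ATP synthase, had 7118, 9152, 19922, 16108 and 15637 CPM against 23006, 20044, 24304, 14592 and 22780 CPM. The 2 lowest values were those of the RN7SK-high libraries, and the groups overlapped through spleen-strengthening library 07. The log2 fold change was -0.62 with all libraries and -0.28 without the RN7SK-high ones. Of 24 tRNA and rRNA genes of the same genome 21 were below 0, with a median of -0.83 that became -0.30, and an unadjusted p under 0.05 was found at 2 tRNA genes in the lower direction (MT-TT and MT-TP) and at 3 in the higher direction.

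The nuclear genes of the same respiratory chain were not lower. Of 39 tested, 25 were above 0, with a median of 0.15, and 10 had an unadjusted p under 0.05 higher and 2 lower. COX5B, a subunit of cytochrome c oxidase, had 35.0, 31.0, 9.56, 9.64 and 9.71 CPM against 6.16, 8.34, 6.84, 8.66 and 7.25 CPM. There was no overlap between groups, and the RN7SK-high libraries stood far above the other 3 heat-clearing libraries. The log2 fold change went from 1.35 to 0.37 without them, and the median of the list from 0.15 to -0.02.

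Ribosomal proteins of the cytosol showed the same dependence. Of 76 tested, 55 were above 0, with a median of 0.26, and 25 had an unadjusted p under 0.05 higher and 1 lower. RPS27, of the small subunit, had 38.0, 38.5, 4.65, 6.07 and 5.56 CPM against 4.21, 4.28, 3.02, 6.78 and 3.26 CPM. The first 2 heat-clearing libraries stood apart, and the other 3 lay within the spleen-strengthening range. Without the RN7SK-high libraries 57 of 76 were above 0, with a median of 0.07, and 0 had an unadjusted p under 0.05 in either direction by edgeR, the one tool run on that subset. Genes of replication and mitosis were near the background, with 18 of 40 above 0 and a median of -0.07. MKI67, the proliferation marker, had 196.7 ± 38.1 against 184.5 ± 15.3 CPM.

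Signalling genes were read by their roles. Among immediate early genes 23 of 31 were above 0, with a median of 0.19, and all 7 AP-1 subunits were. In the fit that leaves out the RN7SK-high libraries 24 of 32 were above 0, with a median of 0.12, and 5 of the 7 AP-1 subunits. NR4A1, an orphan nuclear receptor, had 15.8, 14.7, 7.65, 11.8 and 8.90 CPM against 5.63, 5.36, 6.29, 9.27 and 7.42 CPM. Spleen-strengthening library 07 lay above 2 of the 5 heat-clearing libraries, and the log2 fold change was 0.79 (0.47 without the RN7SK-high libraries). Of 39 NF-kB and inflammatory genes 28 were above 0, with a median of 0.32, and 11 had an unadjusted p under 0.05, all higher. BCL3, a nuclear partner of NF-kB, had 22.6, 20.6, 16.5, 22.6 and 21.3 CPM against 15.2, 18.4, 15.1, 13.2 and 14.4 CPM. Only heat-clearing library 03 lay within the spleen-strengthening range, and the log2 fold change was 0.45 and 0.40 in the 2 fits. RELB, a subunit of the noncanonical pathway, went from 0.86 to 0.09, and the list's median from 0.32 to 0.12. CXCL8, the neutrophil chemokine, had a log2 fold change of -0.05.

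Of the 15 tested Notch genes 13 were above 0, with a median of 0.56, and 6 had an unadjusted p under 0.05, all higher. JAG2, a Notch ligand, had 68.1, 57.9, 22.0, 33.8 and 27.6 CPM against 26.4, 25.5, 24.9, 32.1 and 24.7 CPM. Apart from the RN7SK-high libraries the values overlapped, and without these the log2 fold change went from 0.65 to 0.05. HES1, a Notch target, had 0.40 and 0.22, and the median of the Notch genes became 0.22. The 10 tested Wnt targets had a median of 0.02, with 5 above 0.

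The keratins and proteins of the cornified envelope had the largest median among the whole pathway lists with at least 10 tested members, 0.43 over 30 genes, with 25 above 0 and 12 at an unadjusted p under 0.05, all higher. KRT16, a keratin of stressed epithelium, had 319, 217, 99.0, 108 and 156 CPM against 69.1, 88.4, 64.2, 91.9 and 100 CPM. Only heat-clearing library 03 lay below a spleen-strengthening library, and the log2 fold change was 1.12 (0.55 without the RN7SK-high libraries). TGM1, the transglutaminase that cross-links the envelope, had 0.626, 1.25, 0.779, 0.746 and 1.04 CPM against 0.178, 0.313, 0.196, 0.0588 and 0.436 CPM. The groups did not overlap at these low levels, and the log2 fold change was 1.91 in the first fit and 1.85 in the second. Without the RN7SK-high libraries 28 of 30 were above 0, with a median of 0.21, while the direction of KRT6A was lower in both fits (-0.22 and -0.13). The list had a median GC content of 57.4%, against 47.8% for all rows, and the part of GC content was not tested.

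Subtype genes of pancreatic cancer were read in the same way. The basal-like tumour subtype had 15 of 25 markers above 0 and a median of 0.12. Over 10 fits that each left out 1 heat-clearing or spleen-strengthening library, this median ran from 0.09 to 0.33. Without the RN7SK-high libraries it was 0.07, with 15 of 25 above 0. The classical markers had 12 of 23 above 0 and a median near 0 (0.003), which was -0.18 over 25 tested markers without the RN7SK-high libraries. FAM83A, a basal-like marker that binds EGFR signalling proteins, had 830, 864, 430, 477 and 510 CPM against 359, 361, 338, 346 and 362 CPM. No library of either group lay within the range of the other, and the log2 fold change was 0.82 and 0.42 in the 2 fits. Of the 4 secreted mucins MUC6 and MUC5AC were below 0. MUC5AC, the gastric mucin of the cell surface gel, had 1031, 1788, 1926, 3546 and 1402 CPM against 3476, 1628, 3643, 3527 and 2762 CPM. The groups overlapped, and the log2 fold change of -0.63 had an unadjusted p of 0.0811.

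Matrix and coagulation genes were above 0 in 18 of 25, with a median of 0.23. PLAU, the urokinase that activates plasminogen, had 122, 88.0, 34.1, 39.5 and 43.0 CPM against 26.4, 28.6, 23.7, 29.04 and 23.3 CPM. Its receptor PLAUR had 52.6, 50.7, 44.7, 43.6 and 49.9 CPM against 38.3, 41.0, 39.0, 40.1 and 35.2 CPM. For ligand and receptor alike all 5 heat-clearing libraries were above all 5 spleen-strengthening libraries. The log2 fold change was 1.32 for PLAU and 0.32 for PLAUR, and 0.57 and 0.25 without the RN7SK-high libraries.

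**Figure D4:**
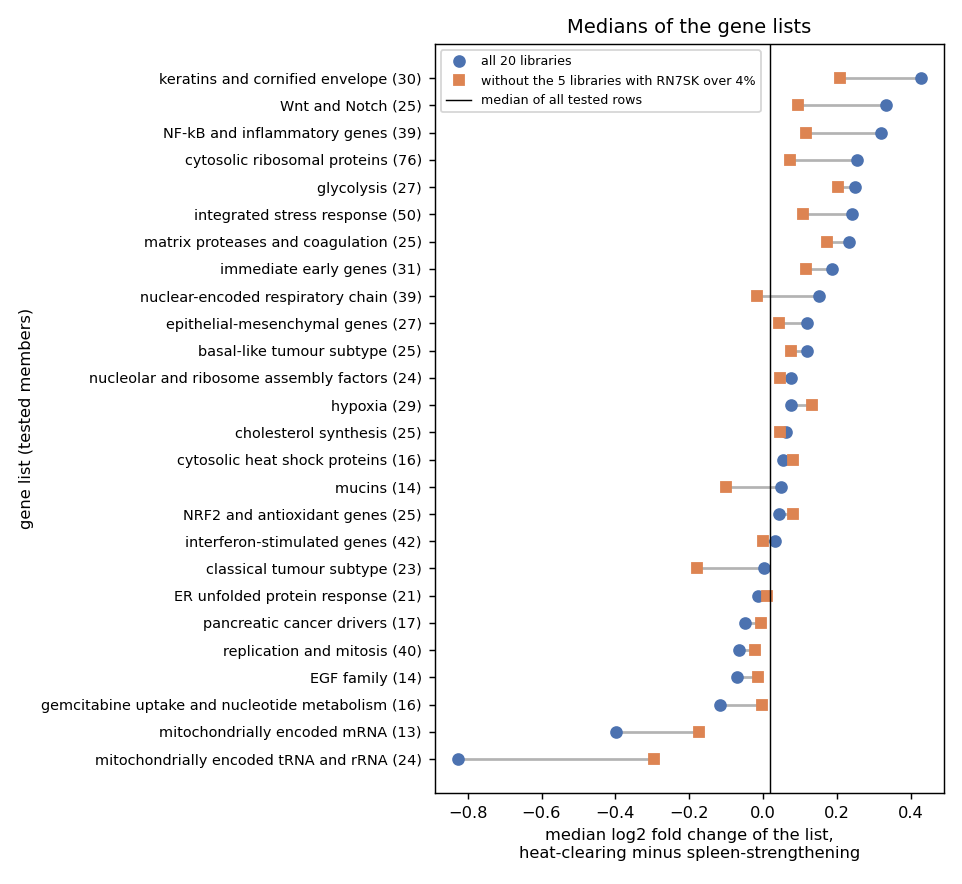
Median log2 fold change (heat-clearing minus spleen-strengthening) of each pathway list with at least 10 tested members, with their number in brackets, from all 20 libraries (blue circles) and without the 5 libraries with RN7SK over 4% (orange squares); the vertical line is the median of all tested rows, 0.02. Glycolysis moves least among the lists above 0.2 (0.25 to 0.20), and mitochondrially encoded tRNA and rRNA move most (-0.83 to -0.30).

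**Figure D5:**
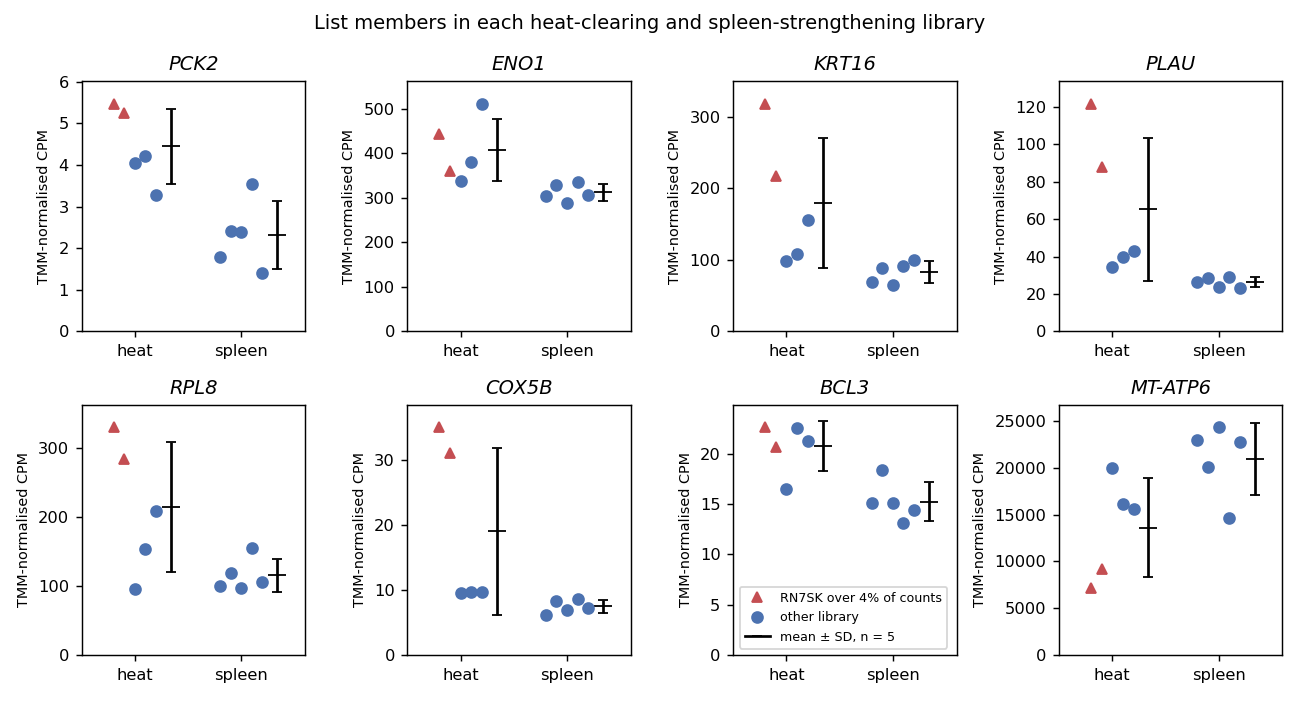
TMM-normalised CPM of 8 list members in each heat-clearing and spleen-strengthening library; red triangles are libraries with RN7SK over 4% of counts, blue circles the others, and black bars the mean ± SD of 5. ENO1, PLAU and COX5B do not overlap between groups, and in PLAU, COX5B, KRT16, PCK2 and RPL8 the 2 red triangles stand above all other libraries.

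Interferon genes divided by role. The 30 type I targets had 12 above 0 and a median of -0.08, and the 12 genes of MHC class I presentation had 11 above 0 and a median of 0.32, which was 0.04 without the RN7SK-high libraries. IRF9, the DNA-binding subunit of the interferon-stimulated factor ISGF3, was singled out after its values were seen. It had 6.27, 19.2, 6.13, 30.3 and 14.3 CPM against 77.9, 66.2, 62.0, 42.2 and 46.6 CPM. The groups did not overlap, and the log2 fold change was -1.95 (SE 0.598, unadjusted p 0.00463, edgeR adjusted p 0.323).

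IRF9 overlaps a second annotated gene. The row AL136295.5 (chr14:24151218-24167402 on hg38) covers the whole of IRF9 (chr14:24161053-24166565) on the same plus strand. AL136295.5 had 54.3, 39.9, 98.3, 61.4 and 80.5 CPM against 26.0, 42.8, 33.9, 25.9 and 56.6 CPM. It was thus mostly higher where IRF9 was lower, and IRF9 made up 5.87% to 33.0% of their summed level in heat-clearing and 45.1% to 75.0% in spleen-strengthening libraries. The sum was 82.1 ± 20.9 against 96.0 ± 16.2 CPM, and its groups overlapped. How the reads were divided between the 2 rows is not given in the sources used here, so the level of IRF9 alone is uncertain.

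The remaining lists had medians from -0.12 to 0.12, apart from the structural RNA list. That list holds RN7SK and 5 other noncoding RNAs and had 4 of 6 above 0 and a median of 0.46, and 3 of 6 and -0.01 without the RN7SK-high libraries. Nucleolar and ribosome assembly factors had 17 of 24 above 0, a median of 0.08 and 5 with an unadjusted p under 0.05, all higher. Genes of gemcitabine uptake and nucleotide metabolism had 7 of 16 above 0 and a median of -0.12. Chaperones and other genes of the endoplasmic reticulum stress response had 10 of 21 above 0 and a median of -0.01, and cytosolic heat shock proteins 10 of 16 and 0.05. Cholesterol synthesis genes had 15 of 25 above 0 and a median of 0.06, antioxidant genes of the NRF2 pathway 14 of 25 and 0.04, and epithelial-mesenchymal genes 17 of 27 and 0.12. Genes of the EGF family had 6 of 14 above 0 and a median of -0.07, and pancreatic cancer driver genes 7 of 17 and -0.05; neither held a member with an unadjusted p under 0.05 by edgeR, the tool run on lists. HMOX1, the haem oxygenase of the antioxidant response, and HSPB8, a small heat shock protein, had log2 fold changes of 0.68 and 0.84, and 0.71 and 0.90 without the RN7SK-high libraries.

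Markers of cell types other than the tumour line were compared as summed CPM without scaling. Acinar genes, the digestive enzymes of the exocrine pancreas, had sums of 8.50 to 437.7 in heat-clearing and 8.69 to 97.5 in spleen-strengthening libraries, with medians of 21.2 and 10.8. Of 30 acinar genes 29 were above 0, with a median of 1.78, and this direction rested on heat-clearing library 03, without which the median was -0.51. Myeloid genes had sums of 77.7 to 193.5 against 62.6 to 94.4, and the RN7SK-high libraries held the 2 highest. In these, heat-clearing 01 and 02, CD68 had 48.0 and 63.3 CPM and S100A9 60.7 and 88.0 CPM. PTPRC had only 0.664 and 0.0333 CPM there and TYROBP 0.133 and 0 CPM, so the sums are no measure of myeloid cells. Endothelial genes had sums of 19.8 to 22.7 against 21.5 to 30.4, and fibroblast genes 59.7 to 119.0 against 80.5 to 121.9. Of the 14 tested fibroblast genes 7 were above 0, with a median near 0. Without the RN7SK-high libraries 2 of 14 were above 0, with a median of -0.42. PECAM1, an adhesion protein of endothelial cells chosen here after its values were seen, was below all 5 spleen-strengthening libraries in all 5 heat-clearing libraries, at 6.07 to 10.9 against 11.98 to 20.5 CPM, with a log2 fold change of -0.77. The endothelial list as a whole had 4 of 7 tested genes above 0 and a median of 0.10, which was -0.12 over 8 tested genes without the RN7SK-high libraries, and PECAM1 is part of its sums. Keratinocyte markers, which include keratins of the tumour line, had sums of 602.4 to 2170 against 330.3 to 911.8, and KRTDAP of skin was at 0 in all 10 libraries.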

How the data were processed

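Per the labels' protocols, TRIzol total RNA was depleted of ribosomal RNA and made into libraries that keep the strand. HISAT2, StringTie and hg38 are named in the submitters' processing notes, without versions. The authors deposited 1 table of raw counts per gene with 60656 rows, of which 1047 repeat an earlier symbol and 12589 hold no count. How reads of the mouse host were separated is not given in the sources used here.

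Counts of all 20 samples were fitted together in edgeR 4.0.16 (R 4.3.3; filterByExpr with a minimum count of 10, TMM, robust quasi-likelihood F-test, Benjamini-Hochberg adjustment). Alternatives used DESeq2 1.42.0, limma 3.58.1, other scalings, filters, covariates and subsets. The procedure was tested on simulated counts. These held no RN7SK-high libraries, no shift with GC content and no changed gene as low as SH2D5, so they say nothing about those features. Gene positions and GC content came from GENCODE release 29.

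Named genes were every gene called, then, in each direction, the 12 of smallest unadjusted p that had a mean of at least 1 CPM, leaving out clone-style and repeated symbols, and up to 4 members of each list with the smallest p in the direction of its median. Other genes are given for their role in a list and were picked with their values in view. The members, lists and the RN7SK cut of 4% were chosen with earlier results of these data known. Replicate numbers were not used as pairs in the main fit, and the closing section gives a fit that uses them as a block.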

Additional observations from a re-analysis of the deposited data

Results flagged for a closer look

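In 4 of 80 groups of 5 samples examined, 1 sample stood apart from the other 4 by Dixon's criterion, and chance gives about 1 in 20. RNF223 in heat-clearing library 09 was 1.47 CPM, with the next lowest library at 2.79 CPM. The summed acinar markers in heat-clearing library 03 were 437.7 CPM without scaling, with the next highest library at 99.1 CPM. SH2D5 in spleen-strengthening library 02 was 0.0374 CPM, with the other 4 libraries at 0. With those 4 tied, any count in library 02 would have been flagged, so the 1 in 20 does not apply here. The summed red blood cell markers in spleen-strengthening library 08 were 1.47 CPM without scaling, with the next highest library at 0.133 CPM.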

How the results depend on the processing

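The 2 genes called higher, NAB2 and SH2D5, depended on the settings. The count was 0 with RLE scaling, with upper quartile scaling, with no filter, with the pair fitted alone, without the RN7SK-high libraries and with a term for them; the smallest edgeR adjusted p in these fits was 0.0519, 0.0627, 0.0957, 0.442, 0.901 and 0.0926. It was 1 with a filter of 1 CPM in 5 samples (NAB2, with SH2D5 not tested there). It was 1 with the letter that ends each sample title as covariate (SH2D5), where NAB2 had an edgeR adjusted p of 0.0902. That letter is not explained by the labels. It is C for heat-clearing 02, 07 and 09 and spleen-strengthening 07, and b for the rest of these 2 groups. The count was 3 with limma voom (both and AC087392.1) and 52 with DESeq2, which also called 15 lower genes where edgeR called 0. The 52 include NAB2 and SH2D5 (DESeq2 adjusted p 6.66e-08 and 4.87e-07), RNF223 and LRRC20, and the 15 include PHACTR3 and MUC6. Other DESeq2 calls had extreme log2 fold changes, such as 20.4 for SLC28A1, 23.5 for PNLIPRP2 and -22.1 for UGT1A9. PNLIPRP2 had counts in heat-clearing library 03 alone of these 2 groups (4.51 CPM without scaling). The DESeq2 counts are thus not all differences shared by the libraries of a group. Leaving out 1 library gave 0 to 2. The count was 2 without blood-activating 06, 2 without heat-clearing 03 (NAB2 and PITX1), 1 without spleen-strengthening 02 (SH2D5), 1 without spleen-strengthening 05 (SNX31) and 0 without any 1 of the other 16. The log2 fold change of NAB2 stayed between 0.86 and 0.98 over 31 alternatives and passed in 5; that of SH2D5 stayed between 5.56 and 8.89 over 30 and passed in 5. The cause of the lost calls was not tested. NAB2, SH2D5 and the 24 other named genes kept their direction in each alternative that tested them. They were chosen by p in these data, and the alternatives reuse all or most of the same libraries. A kept direction is thus no independent support. Of 40 list medians 19 changed sign in at least 1 alternative, among them 7 of the 26 over 0.1 in size: acinar, red blood cell, adipocyte, lymphoid, structural RNA, the nuclear respiratory chain and gemcitabine uptake.

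With the replicate number as a block the count was again 2, but the genes were AP002748.5 and KLK9. Their fitted log2 fold changes were extreme, at 22.3 and 21.3. In that fit NAB2 and SH2D5 had an edgeR adjusted p of 0.554. Correlations of the 12 same-numbered pairs of samples ran from -0.05 to 0.17, and 1 was over 0.1. The 138 pairs with other numbers ran from -0.20 to 0.17, and 8 were over 0.1. Heat-clearing and spleen-strengthening samples share the numbers 02 and 07, with correlations of -0.02 and 0.03. What a shared number stands for is not stated in the sources used here, and these correlations cannot decide it. SH2D5 rests on 4 counts in the spleen-strengthening group, so depth limits its ratio.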
